A study of Mus musculus with 6 samples.

Results

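The adaptors and kinases that carry a signal from Toll-like receptors (TLRs) into the cell were followed in mouse immature dendritic cells (imDCs) under fluid shear stress (FSS). The set holds 10 genes, taken by symbol from the expression table: the adaptors Myd88, Tirap, Ticam1, Ticam2 and Scimp, the kinases Irak1, Irak2, Irak3 and Irak4, and the ubiquitin ligase Traf6. All 10 were found among 18071 genes with values, and all 10 were among the 10899 genes tested, at 1 FPKM (fragments mapped to a gene, corrected for transcript length and library size) or more in each of the 6 libraries. Marrow cells of male C57BL/6 mice aged 7 weeks were grown for 7 days with the cytokines GM-CSF at 20 ng/ml and IL-4 at 10 ng/ml, then isolated by CD11c, an integrin subunit of dendritic cells. The FSS group (3 libraries) was loaded at 10 dyn/cm2 for 3 h by a rotating cone over the dish, and the static group (3 libraries) came from the same kind of culture without flow. The labels do not say whether replicates were separate cultures or mice, so p-values here reflect only the variation among these 6 samples, some or all of which may be technical.

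TLRs and the IL-1 receptor family share a cytoplasmic TIR domain, to which TIR adaptors bind once a ligand has brought the receptor chains together. Myd88 then gathers Irak4, Irak1 and Irak2 into a complex, and the IRAKs engage Traf6, whose ubiquitin chains switch on the kinases that lead to NF-kB and the MAP kinases. A second route, used by TLR3 and by internalised TLR4, runs through Ticam1 (TRIF) and leads to type I interferon. In dendritic cells these routes start maturation and cytokine output.

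The cells carried dendritic markers. Of 12 dendritic markers 10 were at 1 FPKM or more in every library, while Flt3 and Cd209a stayed under 1 FPKM in all. The summed level was 6418 to 7908 FPKM in FSS and 7067 to 7947 FPKM in static libraries. Most of it was Cd74, at 4178 to 5319 FPKM in FSS and 4509 to 5283 FPKM in static libraries. The sums of different lists therefore do not give shares of cell types. All 10 macrophage markers were present too, at summed levels of 740 to 900 FPKM in FSS and 713 to 852 FPKM in static libraries. The 10 neutrophil markers summed to 262 to 442 FPKM in FSS and 302 to 540 FPKM in static libraries, and 7 of them were at 1 FPKM or more throughout. The 4 eosinophil markers summed to 20.05 to 38.8 FPKM in FSS and 22.1 to 48.1 FPKM in static libraries, most of it Siglecf. The 4 T cell markers with values (Cd3e, Cd3g, Cd3d and Cd8b1) were under 1 FPKM in all libraries. The B cell list summed to 2.13 to 4.83 FPKM in FSS and 2.47 to 5.91 FPKM in static libraries, with Ms4a1 and Pax5 under 1 FPKM throughout and Cd79b at up to 2.19 FPKM. The NK cell list summed to 1.57 to 6.29 FPKM in FSS and 2.97 to 10.06 FPKM in static libraries, nearly all of it Gzma, with Ncr1, Klrb1c and Eomes under 1 FPKM throughout. The endothelial and stromal list summed to 1.35 to 1.60 FPKM in FSS and 0.78 to 1.30 FPKM in static libraries. Most of it was Kdr, and Cdh5 was under 1 FPKM throughout.

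No marker of any list passed limma between the groups, out of 36 tested (1 higher and 3 lower at an unadjusted p under 0.05). With the replicate number as a block 3 were higher and 9 lower, near the 7.73% and 25.1% of all genes tested. Some markers differed by more in fold than Traf6 and Myd88 described below, though by less than Irak2, Ticam2, Scimp and Tirap. Mertk, a macrophage receptor for dying cells, had 57.3, 49.8 and 22.0 FPKM in FSS libraries and 20.3, 21.35 and 12.3 FPKM in static libraries (2.39-fold; limma adjusted p = 0.164 and, blocked, 0.00166). Cxcr2, a chemokine receptor of neutrophils, had 3.74, 10.1 and 8.32 FPKM in FSS libraries and 12.2, 25.6 and 17.4 FPKM in static libraries (2.49-fold lower in FSS; limma adjusted p = 0.131 and, blocked, 0.000865). Neither overlapped between the groups. Other markers of the same lists went the other way. With the block 2 of the 10 macrophage markers rose (Mertk and Adgre1) and 2 fell (Fcgr1 and Cd14). Of 8 neutrophil markers tested, 2 fell with the block (Cxcr2 and S100a8) and none rose. After median-ratio scaling with the block, 2 neutrophil markers rose (Ngp and Ltf) and 2 fell. Of the 10 dendritic markers tested, Itgax, Zbtb46, Ccr7 and Batf3 fell with the block (limma adjusted p = 0.0199, 0.0121, 0.0091 and 0.0201), at 0.834, 0.734, 0.642 and 0.795 of the static level, and Zbtb46 and Ccr7 still passed after median-ratio scaling. Kdr rose with the block (limma adjusted p = 0.04). The part of cell makeup in the results was not tested. In these bulk libraries fewer cells of a type and less RNA per cell cannot be told apart.

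Irak2 and Ticam2 rose under FSS, by 2.84-fold and 3.49-fold, and Scimp and Tirap fell, by 3.05-fold and 2.63-fold. Traf6 and Myd88 differed without overlap between the groups, at a ratio of FSS to static of 1.61 and 0.708, but passed only once the replicate number was used as a block. Irak1, Irak4, Ticam1 and Irak3 passed neither way. Thus 4 of the 10 genes were called (2 higher, 2 lower) by limma on log2(FPKM + 1) with Benjamini-Hochberg adjustment, beside 1.72% of all genes tested (0.853% higher and 0.862% lower). With the block 6 were called (3 higher, 3 lower), beside 32.9% of all genes (7.73% higher and 25.1% lower). The 6 were also those whose groups did not overlap, which held for 25.5% of all genes (5.1% with FSS higher and 20.4% with FSS lower). The members were picked by function, with earlier results of these data known. Their median difference was -0.04 on the log2(FPKM + 1) scale, against -0.12 over all genes tested.

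**Figure D1:**
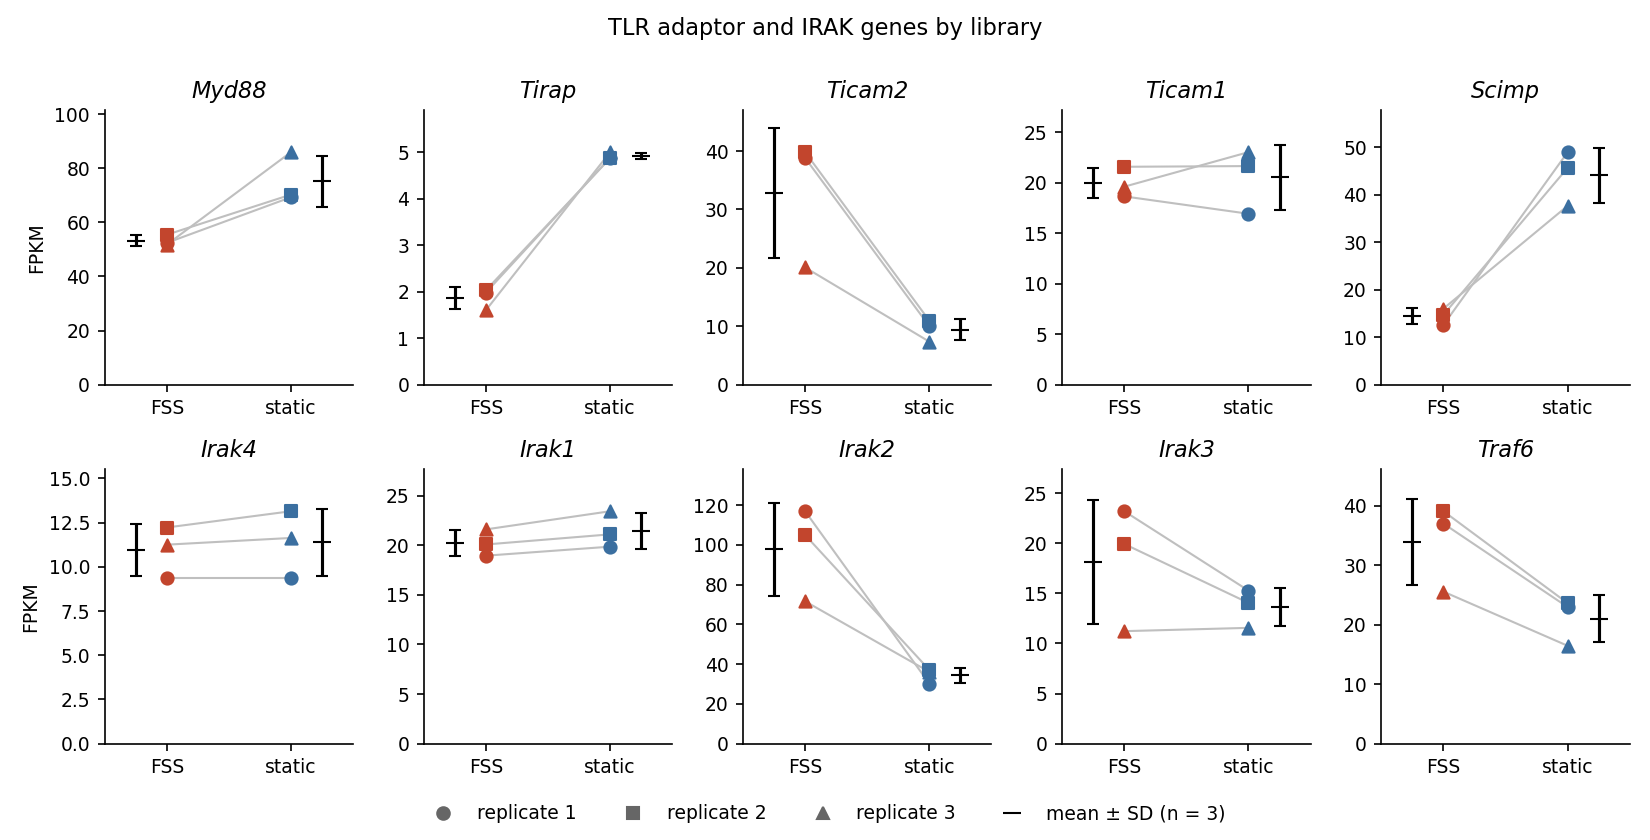
FPKM of the 10 genes in each library, FSS on the left and static on the right of each panel; symbols mark the replicate number, grey lines join libraries of the same number, and black bars give the mean ± SD (n = 3). Irak2, Ticam2 and Traf6 lie higher in all FSS libraries, and Scimp, Tirap and Myd88 lower.

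Both libraries numbered 3 stood apart from the others. With the group in the model, 1496 genes were higher and 3188 lower in number 3 than in numbers 1 and 2 (limma, adjusted p under 0.05). Among the members Ticam2, Traf6 and Irak3 were lower in number 3, by log2 differences of -0.70, -0.52 and -0.60 (limma adjusted p = 0.00592, 0.00757 and 0.0153). This bears on the spread of these genes within each group, and pair values are therefore given beside the group values.

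Promoter sequence is shown for members that differed in opposite directions, Irak2 (higher) against Tirap and Myd88 (lower), so that the start regions can be set side by side. RefSeq promoter entries (GRCm38.p6) were used for 8 of the 10 genes. Scimp had no entry. Ticam2 was left out of the search, so nothing is said here about its promoter. The 250 bases before the start were searched on both strands for 7 motifs. Members were searched at each listed start, while the shares below count 1 promoter per gene. The motif of NF-kB was in 3.75% of the 27025 promoters of that length that were searched. AP-1 (TGANTCA) was in 6.87%, a heat shock element unit (GAANNTTC) in 6.78% and CRE (TGACGTCA) in 1.62%. The ISRE of interferon-regulated genes (GAAANNGAA) was in 7.16%, a PU.1 core (AGAGGAAG) in 3.64% and the C/EBP-ATF composite (TGATGCAA) in 0.818%. In the 8 genes 2 matches were found, both of the ISRE core: 1 in Myd88, from 40 to 32 bases before the start and written here in capitals, and 1 at a start of Irak3, from 102 to 94 bases before it. Among the 8802 tested genes whose promoters were searched, the ISRE core was in 6.59%, NF-kB in 4.46%, AP-1 in 4.29% and CRE in 2.77%. The heat shock unit was in 5.08% of them, the PU.1 core in 3.85% and C/EBP-ATF in 0.545%. The absence of a match says only that these letters are not in this window. Sequences run 5′ to 3′ in the direction of the gene.
Irak2 (chr6:113638217-113638466, plus strand): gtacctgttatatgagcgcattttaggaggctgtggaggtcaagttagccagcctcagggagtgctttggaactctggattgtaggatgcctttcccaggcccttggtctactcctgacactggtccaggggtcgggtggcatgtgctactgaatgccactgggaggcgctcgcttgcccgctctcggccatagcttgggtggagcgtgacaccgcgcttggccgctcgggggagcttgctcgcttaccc
Tirap (chr9:35199966-35200215, minus strand): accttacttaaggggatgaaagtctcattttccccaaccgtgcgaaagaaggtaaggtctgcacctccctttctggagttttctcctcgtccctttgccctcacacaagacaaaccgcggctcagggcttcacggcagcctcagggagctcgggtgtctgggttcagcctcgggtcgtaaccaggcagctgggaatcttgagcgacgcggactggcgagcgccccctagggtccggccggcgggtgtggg
Myd88 (chr9:119340019-119340268, minus strand): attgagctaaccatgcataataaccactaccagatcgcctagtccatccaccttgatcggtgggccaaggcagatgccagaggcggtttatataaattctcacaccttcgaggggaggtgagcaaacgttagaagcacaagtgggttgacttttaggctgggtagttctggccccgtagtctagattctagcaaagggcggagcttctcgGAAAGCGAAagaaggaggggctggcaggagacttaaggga

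Among the TIR adaptors, Ticam2 and Tirap moved in opposite directions. Ticam2 (gene ID 225471) encodes TRAM, the bridge between TLR4 and TRIF on endosomes. It stood at 38.8, 39.8 and 20.1 FPKM in FSS replicates 1 to 3, against 10.0, 10.95 and 7.35 FPKM in static replicates 1 to 3. The lowest FSS library, number 3, was still above every static library. The difference was 1.65 ± 0.29 on the log2(FPKM + 1) scale (SE; 95% interval 0.99 to 2.32; limma adjusted p = 0.0423, and 0.000618 with the block). Ticam2 was higher in all 3 pairs, by 3.88, 3.64 and 2.73-fold. Once all libraries were scaled to equal totals it no longer passed without the block (limma adjusted p = 0.0582). Tmed7, which encodes a cargo receptor that has shared the name TRAM in gene tables, was measured as a gene of its own at 29.4, 30.3 and 25.3 FPKM in FSS and 28.0, 29.3 and 29.1 FPKM in static libraries.

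Tirap (gene ID 117149), also called Mal, brings Myd88 to TLR2 and TLR4 at the plasma membrane. It was the lowest of the 10 genes in both groups, at 1.98, 2.03 and 1.60 FPKM in FSS libraries and 4.88, 4.87 and 5.00 FPKM in static libraries. The groups were far apart relative to the spread within each (1.87 ± 0.235 FPKM in FSS and 4.92 ± 0.0723 FPKM in static libraries, SD, n = 3 each). On the log2(FPKM + 1) scale the difference was -1.05 ± 0.14 (SE; limma adjusted p = 0.0233, and 0.000928 with the block), a scale that understates the change of a gene this low. With 0.1 FPKM added in place of 1 it was -1.36.

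Myd88 (gene ID 17874), the adaptor of nearly all TLRs and of the IL-1 receptor, was the most abundant adaptor in both groups. It measured 52.4, 55.45 and 51.8 FPKM in FSS libraries, against 69.3, 70.3 and 86.0 FPKM in static libraries. Every FSS library was below every static one. The log2(FPKM + 1) difference was -0.48 ± 0.16 (SE; limma adjusted p = 0.171), and Myd88 fell once the block was in the model (adjusted p = 0.0111), also after median-ratio scaling (adjusted p = 0.0203). The fall in pair 3 (to 0.602 of the static level) was larger than in pairs 1 and 2 (0.756 and 0.789).

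Ticam1 (gene ID 106759), the adaptor TRIF itself, held 18.6, 21.6 and 19.6 FPKM in FSS libraries and 16.9, 21.6 and 23.0 FPKM in static libraries. The FSS values lay within the static range. The difference was -0.03 on the log2(FPKM + 1) scale, with a 95% interval of -0.44 to 0.37 (limma adjusted p = 0.955), and its sign turned with median-ratio scaling (0.13). The interval leaves room for a modest change in either direction.

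The balance of the TIR adaptors can be read within each library, where library scaling cancels. These shares were taken up after the values were seen. Ticam2 made up 34.7, 33.5 and 21.6% of the summed FPKM of Myd88, Tirap, Ticam1 and Ticam2 in FSS libraries, against 9.89, 10.2 and 6.05% in static libraries. Myd88 made up 46.9, 46.7 and 55.7% in FSS libraries, against 68.6, 65.2 and 70.9% in static libraries. Tirap made up 1.73 ± 0.0329% in FSS and 4.49 ± 0.354% in static libraries (SD, n = 3 each). For each of these 3 shares the groups did not overlap, which gives the smallest p that an exact two-sided permutation test of 3 against 3 can reach (0.1). The summed FPKM of the 4 adaptors was 108 ± 13.4 in FSS and 110 ± 10.3 in static libraries (SD, n = 3 each; exact permutation p = 0.9). The ratio of Ticam2 to Ticam1 was 2.08, 1.85 and 1.02 in FSS libraries and 0.591, 0.506 and 0.319 in static libraries, a log2 difference of 1.82, 1.87 and 1.68 in pairs 1 to 3. Ticam2 was thus at or above the level of its partner in every FSS library and below it in every static library.

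**Figure D2:**
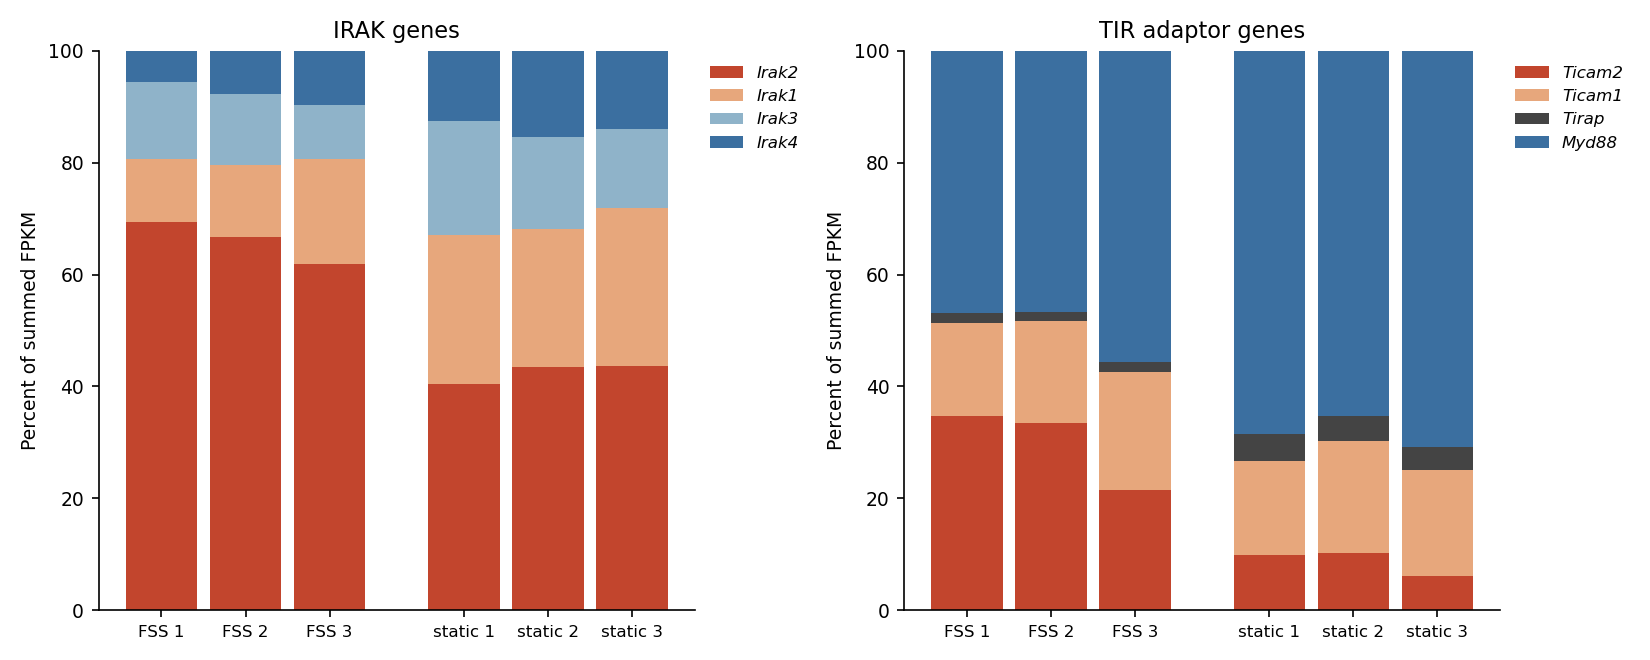
Share of each gene in the summed FPKM of its family (percent, vertical axis), for the 4 IRAK genes on the left and the 4 TIR adaptors on the right, with FSS libraries left of static ones. Irak2 takes 61.9 to 69.4% of the IRAK sum in FSS libraries and 40.4 to 43.7% in static libraries, and Ticam2 takes 21.6 to 34.7% and 6.05 to 10.2% of the adaptor sum.

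Scimp (gene ID 327957) is a transmembrane adaptor of antigen-presenting cells that binds the tyrosine kinase Lyn, and in mouse macrophages it presents TLRs to that kinase for phosphorylation. It had the smallest adjusted p of the 10 genes without the block, while with the block that was Ticam2. Values were 12.6, 14.7 and 16.0 FPKM in FSS libraries, against 49.0, 45.7 and 37.7 FPKM in static libraries. Scimp was second to Myd88 among the members in static libraries and eighth of the 10 in FSS libraries. The log2(FPKM + 1) difference was -1.54 ± 0.18 (SE; 95% interval -1.95 to -1.14; limma adjusted p = 0.0147, and 0.000755 with the block). The level in FSS was 0.257, 0.322 and 0.425 of the static level in pairs 1, 2 and 3.

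The partners listed with Scimp did not share this size of change. Of 11 genes of SCIMP and tyrosine kinase signalling none passed by limma (2 were lower and none higher at an unadjusted p under 0.05), and with the block 1 rose and 2 fell, beside 7.73% and 25.1% of all genes. Lyn itself gave 64.7, 64.0 and 50.55 FPKM in FSS libraries and 72.4, 71.0 and 59.0 FPKM in static libraries. Btk, a kinase of the Tec family, and Csk, which restrains Src-family kinases, fell with the block (limma adjusted p = 0.00457 and 0.00951). Pag1, a membrane adaptor that anchors Csk, rose with the block (adjusted p = 0.00595), with 239, 204 and 98.15 FPKM in FSS libraries and 127, 138 and 75.2 FPKM in static libraries, ranges that overlap.

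The 5 genes whose profile over the 6 libraries was most like that of Scimp on the log2(FPKM + 1) scale included Eef1e1, Glrx, Rab5b and Socs6, with Pearson correlations of 0.995 to 0.989. All 6 libraries and their scaling are shared by every gene, so this describes the profile only. A lower level in FSS libraries follows from the choice of genes that resemble Scimp and is no separate result. Eef1e1, a factor of the aminoacyl-tRNA synthetase complex, had 11.95 ± 0.98 FPKM in FSS and 21.6 ± 1.01 FPKM in static libraries (SD, n = 3 each). Glrx, the thiol oxidoreductase glutaredoxin, had 52.8 ± 5.07 FPKM in FSS and 103 ± 4.98 FPKM in static libraries (SD, n = 3 each).

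Of the 4 IRAK genes, Irak2 alone was called without the block. Irak2 (gene ID 108960) encodes a member of the family that sustains the response after its first phase in mouse macrophages. It reached 117, 105 and 71.6 FPKM in FSS libraries, against 30.2, 37.1 and 36.1 FPKM in static libraries. The lowest FSS library was nearly 2-fold above its static partner, at 1.98-fold, while pairs 1 and 2 gave 3.87-fold and 2.83-fold. The log2(FPKM + 1) difference was 1.45 ± 0.22 (SE; 95% interval 0.95 to 1.96; limma adjusted p = 0.0304, and 0.00148 with the block). Irak2 was the most abundant of the 10 genes in FSS libraries and came after Myd88 and Scimp in static libraries.

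Irak4 (gene ID 266632), the kinase that starts signalling in the Myd88 complex, gave 9.38, 12.2 and 11.25 FPKM in FSS libraries and 9.38, 13.1 and 11.6 FPKM in static libraries. Libraries of the same number were almost level with each other. The log2(FPKM + 1) difference was -0.05 (95% interval -0.47 to 0.38; limma adjusted p = 0.932), and with the block the interval was -0.26 to 0.17. Irak1 (gene ID 16179), the kinase that Irak4 phosphorylates, gave 18.95, 20.1 and 21.6 FPKM in FSS libraries and 19.9, 21.1 and 23.4 FPKM in static libraries. Its interval was -0.44 to 0.28 on that scale, and -0.29 to 0.13 with the block (limma adjusted p = 0.852 and, blocked, 0.509). Both intervals with the block leave out a change of the size seen in Irak2, and the signs of Irak4 and Irak1 turn with median-ratio scaling (0.11 and 0.08).

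Irak3 (gene ID 73914), or IRAK-M, is known as a brake on this pathway in macrophages. It held 23.2, 19.9 and 11.2 FPKM in FSS libraries, against 15.3, 14.05 and 11.6 FPKM in static libraries. FSS replicates 1 and 2 were above all static libraries and FSS replicate 3 below them. Its log2(FPKM + 1) differences in pairs 1 to 3 were 0.57, 0.48 and -0.04, and limma gave adjusted p = 0.586 without and 0.0879 with the block. It rose only when block and median-ratio scaling were combined (limma adjusted p = 0.00592, beside 35.9% of all genes called) and with the block when both libraries numbered 3 were left out (adjusted p = 0.00282). The latter fit holds only 4 libraries.

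Within a library, the ratios of Irak2 to the other IRAK genes do not depend on library scaling. The ratio of Irak2 to Irak1 was 6.17, 5.23 and 3.32 in FSS libraries, against 1.52, 1.76 and 1.54 in static libraries. To Irak4 it was 12.5, 8.59 and 6.37 in FSS libraries, against 3.22, 2.83 and 3.11 in static libraries. To Irak3 it was 5.04, 5.27 and 6.38 in FSS libraries, against 1.98, 2.64 and 3.13 in static libraries. No ratio overlapped between the groups, and the log2 differences were 1.56, 1.53 and 1.12 (exact two-sided permutation p = 0.1 each, the smallest that 3 against 3 allows; exact sign-flip p = 0.25 each over the pairs, also the smallest). Against Irak3 the difference was 1.35, 1.00 and 1.03 in pairs 1 to 3, while against Irak1 it was 2.02, 1.57 and 1.10. The summed FPKM of the 4 genes was 147 ± 27.8 in FSS and 81.0 ± 5.55 in static libraries (SD, n = 3 each), and the share of Irak2 in it was 66.0 ± 3.81% in FSS and 42.5 ± 1.80% in static libraries.

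Traf6 (gene ID 22034), the ubiquitin ligase on which the IRAKs converge, gave 37.0, 39.1 and 25.55 FPKM in FSS libraries, against 23.0, 23.6 and 16.45 FPKM in static libraries. The number 3 library was the lowest of each group, and the lowest FSS value was above the highest static value. The fold within pairs was nearly constant, at 1.61, 1.65 and 1.55. The log2(FPKM + 1) difference was 0.66, with an SE of 0.23 without and 0.09 with the block, and the limma adjusted p was 0.18 without and 0.0025 with it.

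**Figure D3:**
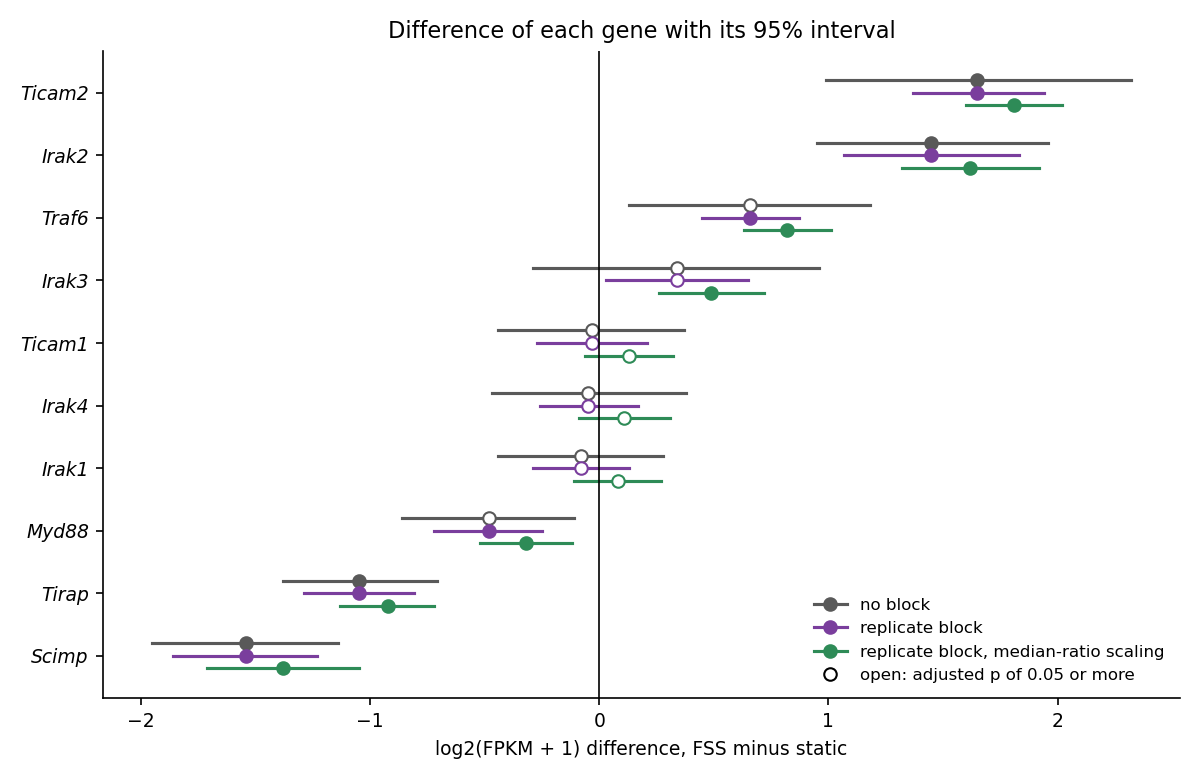
Difference of each gene between FSS and static libraries (log2(FPKM + 1), horizontal axis) with its 95% interval from limma, without the block, with the replicate number as a block, and with that block after median-ratio scaling; open points have an adjusted p of 0.05 or more. Ticam2 and Irak2 lie highest at 1.65 and 1.45, Scimp and Tirap lowest at -1.54 and -1.05.

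The order of the levels changed between the groups. In FSS libraries Irak2 and then Myd88 lay above the rest without overlap, Traf6, Ticam2, Irak1, Ticam1, Irak3 and Scimp followed, each overlapping the next in its replicate range, and Irak4 and Tirap came last. In static libraries Myd88, Scimp and Irak2 were first, none overlapping the next. Irak1, Traf6 and Ticam1 overlapped at about 21 FPKM, Irak3, Irak4 and Ticam2 formed an overlapping chain from 15.3 down to 7.35 FPKM, and Tirap was last. The values, taken here as FPKM, would be corrected for length, so levels of different genes can be set against each other only roughly.

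Leaving out 1 library changed most calls without the block. The direction of the 6 genes that did not overlap could not turn in such fits, so it is no separate result. Without FSS replicate 3, all 4 calls were kept. Without FSS replicate 1, FSS replicate 2, static replicate 1 or static replicate 2 none of the 10 genes passed limma (5 to 6 of them had an unadjusted p under 0.05), and without static replicate 3 only Scimp did (adjusted p = 0.0401). The differences in these 6 fits were 1.31 to 1.66 for Irak2, 1.49 to 1.97 for Ticam2, -1.65 to -1.46 for Scimp and -1.09 to -0.98 for Tirap. With the block and any replicate number left out, the 6 genes Irak2, Ticam2, Traf6, Scimp, Tirap and Myd88 passed each time, joined by Irak3 without number 3. Such a fit holds 4 libraries and leans on the spread of the other genes, so passing it says little about stability. For Ticam2 the blocked limma adjusted p was 0.000618 with all 6 libraries and smaller, 9.84e-06, without number 1. With both libraries numbered 3 left out and no block, Irak2, Ticam2, Traf6, Scimp and Tirap passed.

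FPKM are relative to the other RNAs of a library. The median gene stood 0.12 lower under FSS on the log2(FPKM + 1) scale, and 0.03 higher after median-ratio scaling. Relative to the median gene the differences were 1.77 for Ticam2, 1.57 for Irak2, 0.78 for Traf6, -0.37 for Myd88, -0.93 for Tirap and -1.43 for Scimp. None of these 6 changed direction under any scaling tried.

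The rest of the pathway was counted over 104 genes chosen by role, of which 99 were tested. By limma 1 rose and 2 fell without the block, and 12 rose and 30 fell with it (20 and 16 with block and median-ratio scaling together), so the balance of rises and falls there depends on scaling. With the block these were 12.1% and 30.3% of the 99 genes, beside 7.73% higher and 25.1% lower over all genes tested, and with scaling as well all genes gave 19.6% and 16.3%. The counts of the pathway lists are thus close to those of all genes, and the counts by role below are descriptions to be read against these shares. The median difference was -0.13 on the log2(FPKM + 1) scale, against -0.12 over all genes tested. Bcl3, a nuclear partner of NF-kB p50 and p52, rose, with 53.0, 54.8 and 42.0 FPKM in FSS libraries and 13.2, 18.1 and 18.2 FPKM in static libraries (limma adjusted p = 0.018). Tifab, a relative of the Traf6 partner TIFA that restrains Traf6 in mouse blood progenitors, fell, with 8.95, 16.2 and 15.6 FPKM in FSS libraries and 30.5, 39.3 and 31.3 FPKM in static libraries (limma adjusted p = 0.0495). Il1rl1, the receptor of IL-33 and a user of Myd88, fell at low levels, with 0.69, 1.28 and 0.86 FPKM in FSS libraries and 2.69, 4.07 and 3.67 FPKM in static libraries (limma adjusted p = 0.035).

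Upstream of the adaptors, 20 of 22 receptors and co-receptors were tested. With the block 1 rose and 8 fell (5% and 40%), beside the 7.73% and 25.1% of all genes. With block and median-ratio scaling together 2 rose and 7 fell, beside 19.6% and 16.3% of all genes. Tlr2 was the rise with the block alone, at 87.5, 63.6 and 71.5 FPKM in FSS libraries and 35.7, 35.2 and 46.7 FPKM in static libraries (limma adjusted p = 0.0676 and, blocked, 0.00311). Cd14, the co-receptor of TLR4, and Cd180, a TLR4 relative, fell with the block (limma adjusted p = 0.00343 and 0.0032). Tlr4, whose signalling uses both Tirap and Ticam2, gave 21.1, 19.8 and 11.8 FPKM in FSS libraries and 22.6, 19.3 and 13.7 FPKM in static libraries. Of 7 genes of receptor traffic none passed by limma (1 higher and 1 lower at an unadjusted p under 0.05). With the block Slc15a4, a lysosomal transporter needed by endosomal TLRs, rose, and Slc15a3, a related transporter, and Lrrc59 fell (limma adjusted p = 0.00152, 0.00866 and 0.0181).

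Downstream, among the ubiquitin partners and brakes only Tifab passed without the block. Of 14 Pellino, TIFA and ubiquitin partners 2 rose and 4 fell with the block (14.3% and 28.6%, beside 7.73% and 25.1% of all genes). Peli1, a ubiquitin ligase that binds IRAKs, stood at 153, 109 and 45.2 FPKM in FSS libraries and 58.3, 49.1 and 31.1 FPKM in static libraries, ranges that overlap through the number 3 library (limma adjusted p = 0.281 and, blocked, 0.00352). Traf3, a TRAF of the interferon route, rose with the block, and Sharpin, a subunit of the linear ubiquitin ligase, fell (adjusted p = 0.0138 and 0.0269). Of 15 negative regulators none passed by limma (3 higher and 1 lower at an unadjusted p under 0.05). With the block 4 rose and 4 fell (26.7% each, beside 7.73% and 25.1% of all genes). With block and median-ratio scaling together 5 rose and 1 fell, beside 19.6% and 16.3% of all genes. The rises included Tnfaip3 (A20) and Tank, which restrain Traf6 signalling, and the falls included Nlrx1 (limma adjusted p = 0.00191, 0.00575 and 0.0095 with the block).

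Below Traf6, of 32 kinases and transcription factors 3 rose and 10 fell with the block (9.38% and 31.2%), shares near the 7.73% and 25.1% of all genes. Of 12 TAK1 and IKK kinases none passed by limma (1 higher and 1 lower at an unadjusted p under 0.05). With the block only Map3k8 (Tpl2), which couples TLRs to ERK, rose, and 5 fell, among them Tab3 and Chuk (limma adjusted p = 0.00233, 0.0237 and 0.0278). Of 7 MAP kinases of the pathway none passed by limma (2 lower at an unadjusted p under 0.05) and 3 fell with the block, namely Map2k3, Map2k7 and Mapk9 (limma adjusted p = 0.01, 0.011 and 0.0125). Of 13 transcription factors and inhibitors Bcl3 was the call without the block. With the block Nfkbiz, a nuclear NF-kB cofactor induced by TLRs, rose as well, while Irf7 and Irf5, which act below Myd88, fell (limma adjusted p = 0.00431, 0.00176 and 0.0381). Irf7 had 29.1, 28.2 and 15.4 FPKM in FSS libraries and 71.6, 49.3 and 47.3 FPKM in static libraries. After median-ratio scaling with the block, Lrrc59, Sharpin, Tab3, Chuk, Map2k3 and Irf5 no longer passed, with limma adjusted p-values of 0.0522 to 0.355.

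**Figure D4:**
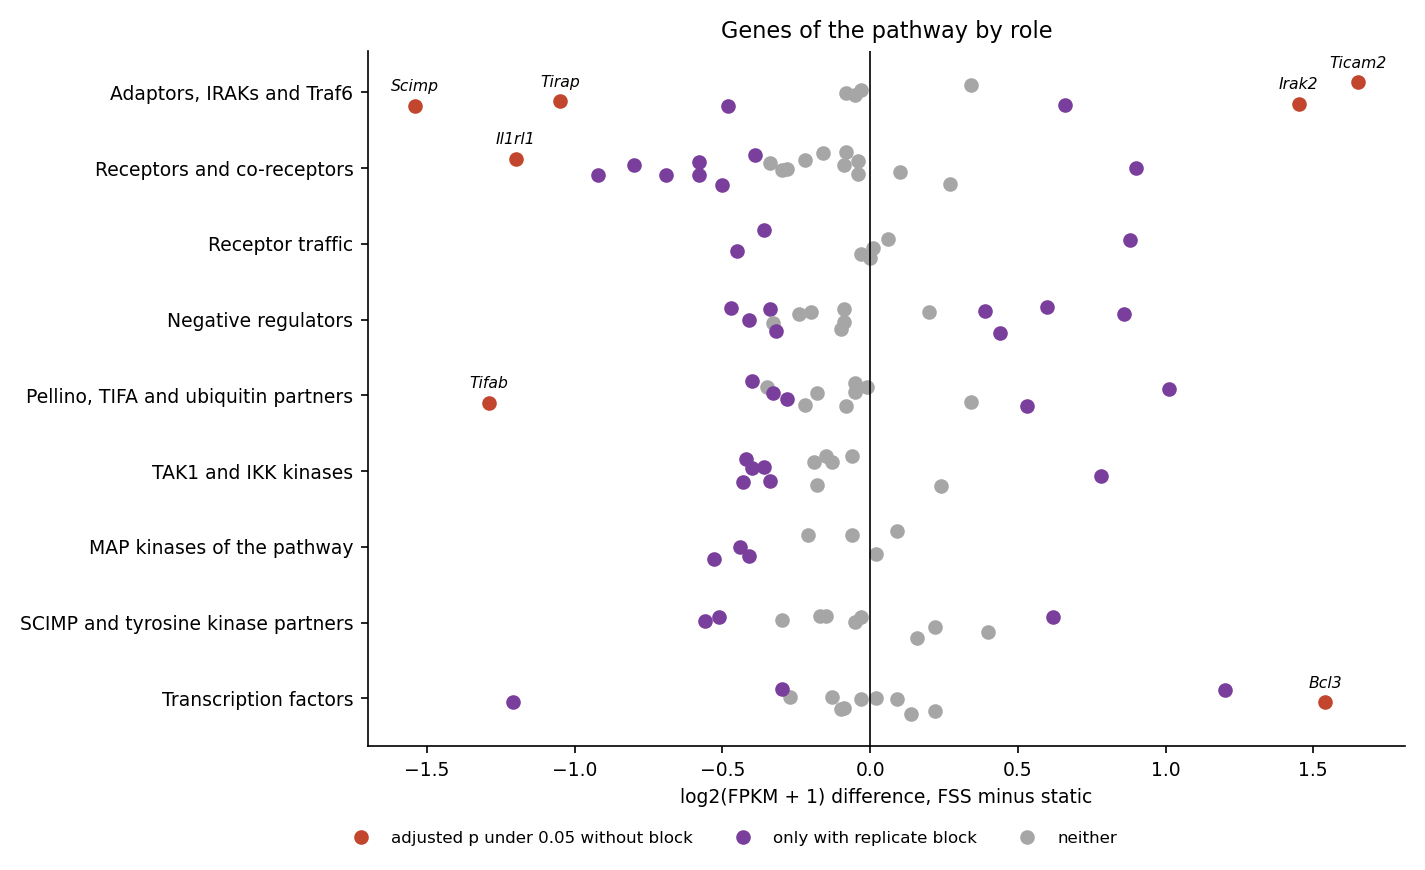
Difference of each tested gene between FSS and static libraries (log2(FPKM + 1), horizontal axis), in rows by role; colours mark genes called by limma without the block, only with the block, or neither. The adaptor and IRAK row holds 4 calls without the block, and the 8 other rows together hold 3 (Bcl3, Tifab and Il1rl1).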

How the data were processed

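RNA of 6 libraries (3 FSS, 3 static) was grouped by the sample titles, which also give replicate numbers. The authors deposited expression values per gene, without a unit, in 1 series table and 6 identical sample columns. They were taken as FPKM because library totals differ (413898 to 470596) and value times transcript length sums to 0.552 to 0.609 (median lengths) and 1.14 to 1.28 (longest lengths) times 1e9. HISAT and Bowtie2 are named in the submitters' processing notes. For the quantifier, build, annotation and use of strand, nothing is given in the sources used here. The deposited FPKM have 2 decimals and showed no read steps, which leaves the depth unknown and allows no counting interval.

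Of 22899 genes, 4828 had no values. The 10899 genes that reached 1 FPKM in 3 libraries or more were fitted on log2(FPKM + 1) with limma 3.58.1 in R 4.3.3 (trend, two-sided, Benjamini-Hochberg over all genes tested, threshold 0.05), without the replicate number. The step was tested on simulated data, in which changes were added only to genes with a higher mean level than Tirap. The outcome is not given here. All 10 members are named. Of the role lists, up to 4 genes called without the block and up to 3 more called with it are named, or else the gene with the smallest adjusted p; Tlr4, Lyn and Tmed7 were added after their values were seen. The 5 genes most like the member with the smallest adjusted p without the block needed a mean of 2 or more on that scale; 1 of them is not reported here. Members and lists were chosen with earlier results of these data known.

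What a replicate number shares is not in the labels. Between libraries of the same number, deviations from the group mean correlated over genes (Pearson 0.792, 0.664 and 0.866 for numbers 1 to 3), so the libraries were treated as pairs by number, and results of a blocked fit stand beside the unblocked ones. Gene overlaps in the GRCm38.p6 table of NCBI involved no other gene with values.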

Additional observations from a re-analysis of the deposited data

How the results depend on the processing

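The counts of called genes depended on the replicate block, the filter, the threshold and the libraries; causes were not tested. For the 10 genes (2 higher, 2 lower), there were 0 and 1 with no filter (17202 genes tested; 3 and 3 at an unadjusted p under 0.05 by limma), 0 and 0 at a threshold of 0.01, 1 higher with equal totals, 3 and 3 with the replicate block and 4 and 3 with block and median-ratio scaling together. With 1 library left out they ranged from 0 to 2 higher and 0 to 2 lower, and with the block and a replicate number left out from 3 to 4 higher and 3 lower. Leaving out both libraries numbered 3, an alternative chosen after seeing the data, gave 3 and 2.

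For the 99 pathway genes (1 higher, 2 lower), there were 0 and 0 with no filter or a threshold of 0.01 (8 and 14 at an unadjusted p under 0.05), 1 lower with a pseudocount of 0.1, 1 lower with equal totals, 4 and 1 with median-ratio scaling, 12 and 30 with the block and 20 and 16 with both. The range was 0 to 5 higher and 0 to 2 lower with 1 library left out, 9, 10 and 20 higher and 16, 25 and 27 lower with the block and number 1, 2 or 3 left out, and 8 and 6 without both libraries numbered 3.

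Over all genes (93 higher, 94 lower), there were 14 and 7 with no filter, 4 and 1 at 0.01, 45 lower with equal totals, 154 higher with median-ratio scaling, 842 and 2739 with the block and 2129 and 1772 with both. The range was 3 to 291 higher and 0 to 176 lower with 1 library left out (at an unadjusted p under 0.05, 299 to 1115 and 854 to 1492), 480, 563 and 1594 higher and 1642, 1948 and 2676 lower with the block and number 1, 2 or 3 left out, and 402 and 373 without both libraries numbered 3.

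Directions turned for genes near 0 that were not called. Ticam1 was 0.13 with median-ratio scaling (with or without the block), 0.03 with equal totals, 0.06 without both libraries numbered 3 (with or without the block), and -0.16 to 0.05 with 1 library left out, being 0.01 without FSS replicate 1 or static replicate 2. Irak4 was 0.11 and 0.01 under the same scalings and -0.17 to 0.05 with 1 library left out, and Irak1 was 0.08 with median-ratio scaling. The differences in log2 ratio of Irak2 to Irak1, Irak3 and Irak4 could not turn sign with 1 library left out, since no ratio overlapped. They then ranged from 1.38 to 1.82, 0.95 to 1.27 and 1.28 to 1.76. With the replicate block they are the same by construction, and with a pseudocount of 0.1 they were the same after rounding.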
